A study of Homo sapiens with 6 samples.

Results

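Accessibility was examined around 10 genes for transcription factors of the trophectoderm (TE) and its descendants, GATA2, GATA3, CDX2, TFAP2A, TFAP2C, GCM1, HAND1, TP63, ELF5 and MSX2. Every region of the deposited count table that lay inside one of these genes or within 50 kb of it was taken, with genes from GENCODE 44 on hg38. This gave 214 of the 171517 regions, from 12 at GATA3 to 35 at TFAP2C, and each was named by the distance of its centre from the gene's canonical transcript start. In ATAC-seq, a transposase cuts open chromatin, so that the count of reads in a region reports how accessible it was. The libraries came from naive human embryonic stem (nES) cells of the established line H9, a single genetic background, grown in tt2iLGö medium with inhibitors of MEK, GSK3 and protein kinase C and with LIF, and separated from mouse feeders before plating on laminin. The comparison was between 3 control libraries, labelled DMSO and described in the methods as without dm-αKG, and 3 libraries of cells given 4 mM dm-αKG, a cell-permeable form of α-ketoglutarate, for 24 h. No differentiation was induced in either group.

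The TE is the outer layer of the blastocyst and founds the trophoblast of the placenta. GATA2, GATA3, TFAP2A and TFAP2C form a circuit that drives trophoblast genes, and TFAP2C is also active in naive pluripotent cells, where it opens enhancers. CDX2 marks the TE, TP63 and ELF5 mark the proliferating cytotrophoblast, GCM1 drives fusion into syncytiotrophoblast, HAND1 is used in trophoblast and in extraembryonic mesoderm, and MSX2 restrains syncytiotrophoblast genes. A fully accessible site in fewer cells and a less accessible site in all cells give the same count in such bulk libraries and cannot be told apart.

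The regions on which the results below turn are shown first, as the + strand of hg38 from 5′ to 3′. The first 5 were the regions of the 10 loci whose change passed both thresholds of the study in the edgeR test used here. The study itself applied these thresholds to DESeq2 results. The GCM1 promoter region was a promoter that became less accessible, and the CDX2 promoter region is given as a TE promoter whose change did not pass. Capitals mark matches to 8 motifs searched on both strands. The GATA motif, the site that GATA2 and GATA3 recognise, was taken in the form AGATAA and in 3 further forms. The first of these, which differs at its end, was spelled AGATAG in the search. A second one, which differs at its beginning, was spelled TGATAA in the search. The last of them differs at both its beginning and its end and was spelled TGATAG in the search. For AP-1, the family of JUN and FOS, the letters searched were TGANTCA with any base in the middle. The AP-2 factors TFAP2A and TFAP2C were represented by GCCNNNGGC, a palindrome. TEAD factors, which act with the Hippo pathway, were represented by GGAATG on either strand. The octamer that OCT factors bind was searched as ATGCAAAT without mismatches. The core that SOX factors bind was searched as ACAATGG, again without mismatches. Forkhead factors were represented by TGTTTAC and the stress factor NRF2 by a partial element of 9 bases, TGACNNNGC. An AP-1 and an NRF2 match can overlap. Untranslated bases were left out at GCM1 and CDX2, and the central 200 bp of the TP63 region are printed.
GATA2 -6.3 kb region, chr3:128499357-128499556: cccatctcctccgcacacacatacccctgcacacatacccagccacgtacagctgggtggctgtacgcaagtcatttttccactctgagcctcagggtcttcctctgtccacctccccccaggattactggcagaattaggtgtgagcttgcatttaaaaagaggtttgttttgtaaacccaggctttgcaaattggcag
TP63 region at the internal start, chr3:189790680-189790879: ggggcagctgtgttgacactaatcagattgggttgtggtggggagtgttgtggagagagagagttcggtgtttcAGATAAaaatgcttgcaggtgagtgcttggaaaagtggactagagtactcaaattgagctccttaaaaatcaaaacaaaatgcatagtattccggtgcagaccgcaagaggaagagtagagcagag
TFAP2C -44.2 kb region, chr20:56584993-56585199: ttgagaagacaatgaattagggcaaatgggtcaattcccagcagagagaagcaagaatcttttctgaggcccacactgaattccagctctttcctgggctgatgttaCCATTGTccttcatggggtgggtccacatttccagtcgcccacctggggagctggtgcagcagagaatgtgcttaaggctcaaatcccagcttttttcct
HAND1 -23.5 kb region, chr5:154501653-154501865: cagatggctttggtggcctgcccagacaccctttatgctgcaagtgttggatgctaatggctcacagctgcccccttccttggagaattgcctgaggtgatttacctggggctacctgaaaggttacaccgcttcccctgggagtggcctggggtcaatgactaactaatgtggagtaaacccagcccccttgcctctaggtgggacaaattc
MSX2 -25.6 kb region, chr5:174698926-174699125: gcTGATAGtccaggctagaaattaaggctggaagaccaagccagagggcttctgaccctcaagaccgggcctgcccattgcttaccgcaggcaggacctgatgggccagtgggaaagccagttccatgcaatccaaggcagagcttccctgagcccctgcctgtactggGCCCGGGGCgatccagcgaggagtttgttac
GCM1 promoter region, chr6:53148842-53149014: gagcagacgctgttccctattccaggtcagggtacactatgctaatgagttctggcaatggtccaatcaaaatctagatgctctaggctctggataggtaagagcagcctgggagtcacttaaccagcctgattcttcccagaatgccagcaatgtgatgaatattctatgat
CDX2 promoter region, chr13:27969316-27969488: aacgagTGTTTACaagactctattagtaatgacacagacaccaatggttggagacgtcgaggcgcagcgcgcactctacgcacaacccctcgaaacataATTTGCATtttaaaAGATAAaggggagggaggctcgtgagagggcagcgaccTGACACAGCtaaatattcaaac
The TFAP2C region held a SOX match, the TP63 region a GATA match, and the MSX2 region a GATA and a TFAP2 match. The CDX2 promoter held an octamer, a forkhead, a GATA and an NRF2 match within the 173 bases printed, and 2 TFAP2 matches in bases that are not printed. The GATA2, HAND1 and GCM1 sequences held none of the 8 motifs, which says only that these letters were not in the windows. A match is a description of the sequence and not evidence that a factor was bound.

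The libraries held 13025674 to 26828622 counts in regions, and libraries of the same treatment correlated more closely across regions (Pearson's r of 0.954 to 0.973) than libraries of different treatments (0.925 to 0.938). Promoters of all 8 naive markers examined, among them POU5F1, NANOG, KLF17 and SUSD2, had a region, at 175 to 658 normalized counts per 200 bp in control. Their normalized counts per region, not scaled to 200 bp, summed to between 3208 and 3282 in control and between 3328 and 3458 with dm-αKG. KLF17 fell by 0.39 and SUSD2 rose by 0.33 on the log2 scale at their promoters. Of 6 trophoblast markers, 5 had a promoter region. Their counts per region, also not scaled to 200 bp, summed to 944 to 994 in control and 922 to 966 with dm-αKG. KRT19 alone passed the test, lower with dm-αKG (log2 fold change -0.29). None of the promoter regions of 4 streak and mesoderm, 3 endoderm and 2 amnion markers passed, and of 3 primed markers SFRP2 fell by 0.42. No marker promoter region stood at 0 in any list, and an accessible promoter does not show that the gene was expressed.

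Summed over all its regions, accessibility around GATA2 rose with dm-αKG, and accessibility around TFAP2C fell. Of the 10 locus totals, 3 rose (GATA2, CDX2 and GATA3) and 2 fell (TFAP2C and GCM1) at an adjusted p below 0.05 in edgeR's quasi-likelihood test, adjusted over 19596 protein-coding genes. Of all these genes 22.6% rose and 14.8% fell, with a median log2 fold change of 0.02 against 0.00 for the 10 loci, so that the number of loci that passed is not particular to the list. The windows of neighbouring genes overlap, and a locus total therefore also holds regions of neighbours. A total also holds regions listed as a peak in 1 treatment only, which entered the table through that treatment. At GATA3, 4 of the 12 regions were listed only with dm-αKG and 1 only in control. For GATA2 these were 4 and 2 of 20, and for TFAP2C 4 and 6 of 35. Totals without such regions were not tested.

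At GATA2, the total over 20 regions was 2450, 2413 and 2675 normalized counts in the control libraries and 3309, 3106 and 2919 with dm-αKG. The treatments did not overlap, and the total rose by a log2 fold change of 0.32 (SE 0.04, adjusted p = 2.82e-06). At TFAP2C, the total over 35 regions was 6357, 6667 and 6381 in control and 5580, 5570 and 5450 with dm-αKG. Here too the treatments did not overlap, and the log2 fold change was -0.22 (SE 0.03, adjusted p = 2.38e-06). These 2 factors of one trophoblast circuit thus changed in opposite directions at their loci.

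The other 3 changes were smaller. CDX2 totals were 2543, 2457 and 2624 in control and 2797, 2908 and 2654 with dm-αKG, and the change on the log2 scale was 0.14 (SE 0.04, adjusted p = 0.00651). GATA3 totals were 821, 879 and 798 in control and 921, 957 and 895 with dm-αKG (0.15, SE 0.06, adjusted p = 0.0488). For both genes every dm-αKG library was above every control, at GATA3 with an adjusted p just under the threshold. GCM1 totals were 3297, 3263 and 3042 in control and 2830, 2929 and 3043 with dm-αKG, which is -0.13 on the log2 scale (SE 0.04, adjusted p = 0.00624), and the highest dm-αKG library overlapped the lowest control.

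The remaining 5 loci did not pass. Their log2 fold changes were 0.12 at TP63 (adjusted p = 0.0583), 0.07 at TFAP2A (0.12), -0.07 at ELF5 (0.299), -0.06 at MSX2 (0.356) and -0.08 at HAND1 (0.0891). The TP63 dm-αKG libraries lay at 1590, 1613 and 1805 against 1546, 1508 and 1541 in control, with dm-αKG replicate 3 well above the other two. At HAND1 all 3 dm-αKG totals (2795, 2830 and 2705) lay below the controls (3013, 2889 and 2886).

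**Figure D1:**
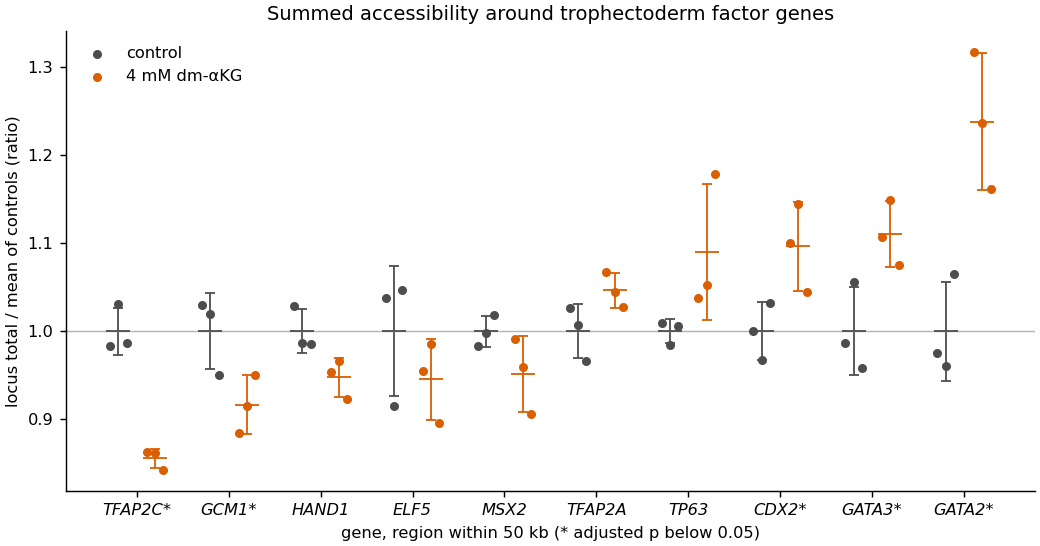
Normalized counts summed over all regions inside or within 50 kb of each gene, per library, divided by the mean of the 3 controls, so that 1 is the control level; the ratio axis does not start at 0. Points are libraries, horizontal marks are means and bars are ± SD (n = 3 per treatment). GATA2 stands highest and TFAP2C lowest with dm-αKG, and an asterisk marks an adjusted p below 0.05.

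The composition of the sequence moved with the direction of change. Member regions that rose had a median GC content of 59.5% and those that fell 51.5%, and over the whole table these medians were 59% and 51%. With offsets that remove each library's trend on GC content, GATA2 (log2 fold change 0.27, adjusted p = 3.31e-05), TFAP2C (-0.17, adjusted p = 9.99e-05) and GATA3 (0.16, adjusted p = 0.0371) still passed. CDX2 (0.09, adjusted p = 0.053) and GCM1 (-0.07, adjusted p = 0.125) no longer passed, and TP63 (0.18, adjusted p = 0.0028) and HAND1 (-0.10, adjusted p = 0.0206) passed. Without the regions at transcript starts of other genes, GATA2, CDX2, TFAP2C and GCM1 passed in the same direction, HAND1 (-0.17, adjusted p = 0.00126) and ELF5 (-0.22, adjusted p = 0.0228) also fell, and GATA3 missed the threshold (0.15, adjusted p = 0.0516). The GATA3 total also missed it without control replicate 1 (adjusted p = 0.125), control replicate 3 (0.16), or the first (0.0919) or second (0.172) dm-αKG library and with DESeq2 (0.0809), the CDX2 total without dm-αKG replicate 2 (0.0686), and the GCM1 total without control replicate 1 (0.0742) or dm-αKG replicate 1 (0.0695). Without dm-αKG replicate 1 the TP63 total passed (0.0252), as it did with total-count scaling (0.0299). Without dm-αKG replicate 3, however, its log2 fold change was only 0.06 (adjusted p = 0.289).

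Of the 214 regions, 23 rose and 25 fell at an adjusted p below 0.05, and 166 did not pass. Of the 23, 8 were peaks only in the dm-αKG list and of the 25, 5 only in the control list, which brought them into the table through the treatment where they were higher. The counts are 10.7% and 11.7% of the regions, against 7.43% of all regions that rose and 10.5% that fell, and the median log2 fold change was 0.03 against 0.01 for all regions. The shares over the whole list were thus close to those of the table, and single loci were further from them. GATA2 had 10 regions that rose and 0 that fell of 20, and TFAP2C had 13 that fell and 0 that rose of 35. TP63 had 5 that rose and 1 that fell of 20, CDX2 4 and 1 of 24, GATA3 2 and 1 of 12, and GCM1 1 and 3 of 23. HAND1 had 3 that fell of 21, MSX2 2 of 14 and ELF5 1 of 13, with 0 that rose, whereas TFAP2A had 1 that rose of 32 and 0 that fell. Neighbouring regions share a locus and are not independent.

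By position, 16 of 75 regions upstream of a member fell and 4 rose, and 6 of 74 downstream fell and 10 rose. Single loci made up much of this, with 8 of the 16 at TFAP2C and 5 of the 10 at GATA2. Of 20 in introns, 1 fell and 5 rose, all of the 5 within GATA2 or TP63. How often upstream, downstream or intron regions of other genes rose or fell was not computed. These 3 sets of counts therefore describe the 10 loci and do not show that position set them apart. Of 41 within 1 kb of an annotated start of the gene, 2 fell (4.88%) and 4 rose (9.76%). Among the promoter regions of all protein-coding genes, taken as the highest of each gene, 4.88% fell and 8.76% rose. With the cut-offs of the study, which asks for an adjusted p under 0.01 together with more than a 2-fold change (log2 of 1) either way, 2 regions were more accessible and 3 were less accessible, where 0.782% and 1.96% of all regions were. These calls are from edgeR, whereas the study used DESeq2, with which 1 region was more accessible and 2 were less accessible. They lay at 5 different genes, GATA2, TP63, TFAP2C, HAND1 and MSX2. Those at TFAP2C and HAND1 were peaks in both lists of the authors, whereas the other 3 were peaks only in the treatment where they were higher. There was no such region within 50 kb of GATA3, CDX2, TFAP2A, GCM1 or ELF5.

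**Figure D2:**
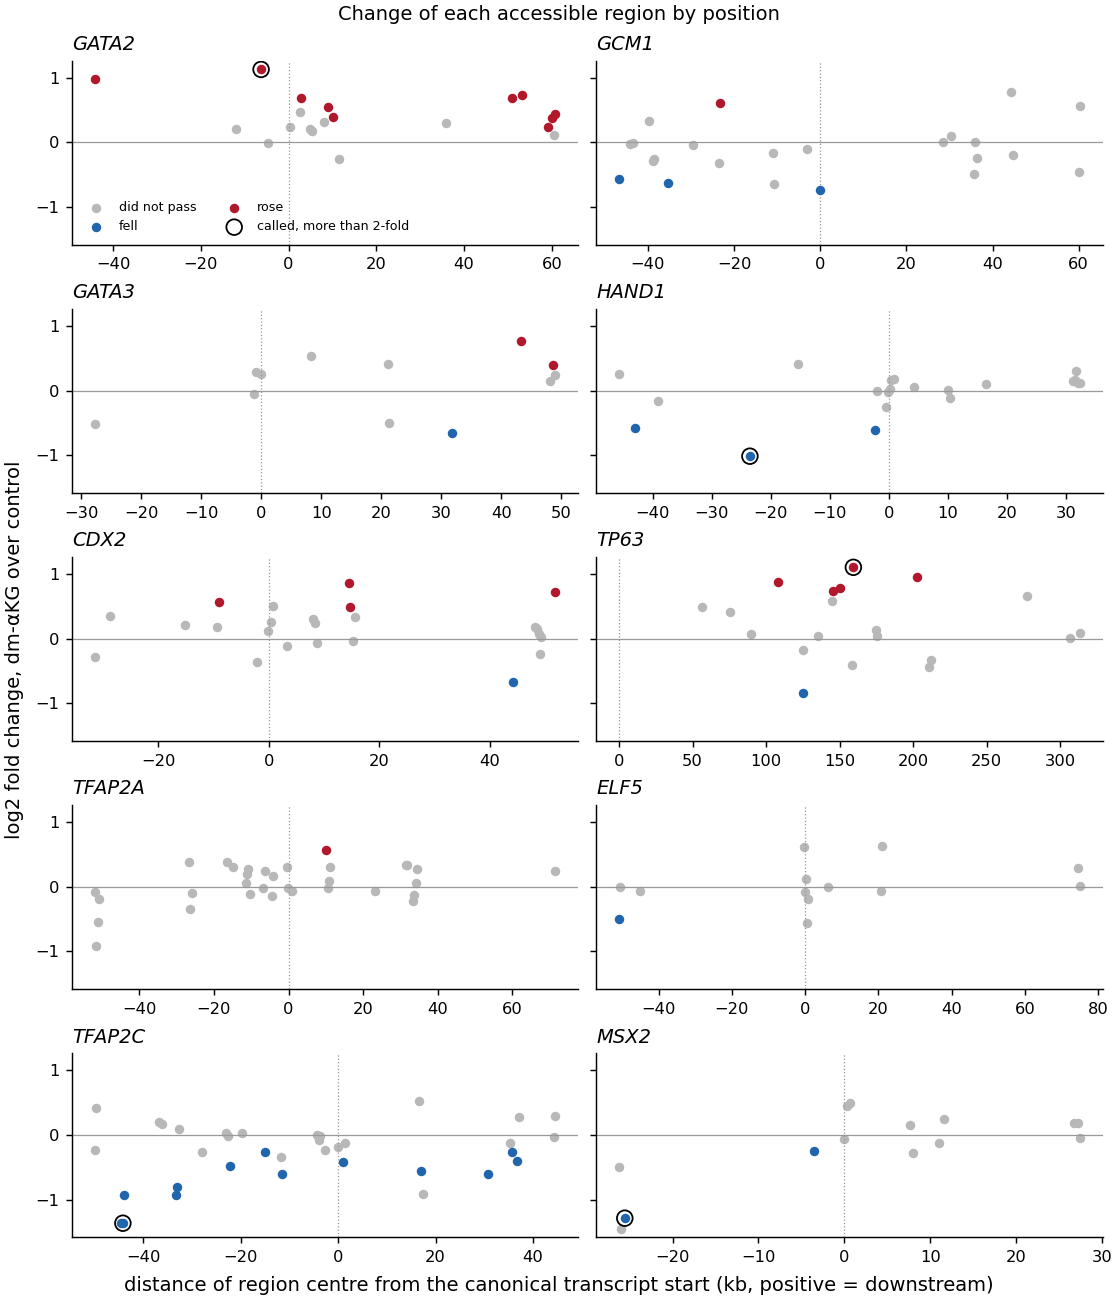
Log2 fold change (dm-αKG over control, n = 3 libraries per treatment) of each of the 214 regions against the distance of its centre from the canonical transcript start of the gene, in kb. Red regions rose, blue regions fell, grey ones did not pass, and circles mark those past both thresholds. GATA2 holds only red and grey points and TFAP2C only blue and grey ones.

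GATA2 is a zinc-finger factor of the early trophoblast that is also needed for blood stem cells. Its region at -6.3 kb, upstream of the gene, held 38.5, 28.8 and 54.7 normalized counts in control and 85.3, 83.4 and 91.3 with dm-αKG. The treatments were separate, and the log2 fold change was 1.13 (SE 0.22, adjusted p = 4.36e-05). Without control replicate 2 the change was 0.92, under the study's fold threshold. The region held the summit of a peak of the authors' dm-αKG list and of no control peak, so that it too entered the table through the treatment in which it was higher. Within the gene, a region at 2.94 kb downstream of the canonical start and 384 bp from another annotated start rose from 125, 127 and 123 to 217, 223 and 159 (log2 fold change 0.69), again without overlap. A further rising region lay at -44.1 kb, next to the pseudogene TMED10P2 (17.9, 24.7 and 23.1 against 53.1, 33.4 and 40.4, log2 fold change 0.98). Another 5 of the 10 lay beyond the end of the gene, at 51.0 to 60.8 kb from its start, with log2 fold changes of 0.23 to 0.73. The promoter region itself, at 5.26 kb from the canonical start and 28 bp from an annotated start, held 251, 238 and 281 against 301, 262 and 299, which did not pass (0.18, SE 0.10, adjusted p = 0.24).

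TFAP2C, an AP-2 factor, had its smallest p at -44.2 kb. This region held 166, 210 and 187 normalized counts in control and 73.1, 65.4 and 80.8 with dm-αKG (log2 fold change -1.36, SE 0.15, adjusted p = 1.76e-11). Every dm-αKG library held less than any control. The 2 regions that flank it also fell, at -44.6 kb from 16.1, 31.2 and 29.2 to 14.3, 3.85 and 8.98 (log2 fold change -1.35, adjusted p = 0.0117) and at -44.0 kb by 0.93 on the log2 scale, so that the change covered 3 adjacent regions. The first of them had a fold past the study's threshold and an adjusted p that was not. The nearest annotated start there is that of the non-coding gene LINC01716, at 7533 bp. At the start of LINC01716, the region at -33.1 kb fell from 212, 301 and 237 to 150, 141 and 136 (-0.81). Closer to TFAP2C, the region at -11.5 kb fell from 275, 257 and 268 to 189, 183 and 145 (-0.61), and the one at 0.998 kb, inside the gene and 70 bp from an annotated start, from 207, 218 and 188 to 162, 167 and 124 (-0.42). All of these were separate between treatments. The promoter region with the highest count, at 1.46 kb, held 408, 432 and 454 against 381, 414 and 391 and did not pass (-0.13, SE 0.08, adjusted p = 0.316), and passed only with the GC offsets (-0.24, adjusted p = 0.0388).

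TP63 encodes the p53 relative p63, whose shorter form starts at an internal promoter. No region of the table lay within 50 kb of its canonical start, and the promoter region by the rule used here was the one 979 bp from an annotated internal start, at 159 kb. It held 28.6, 27.9 and 17.0 normalized counts in control and 64.5, 38.5 and 55.4 with dm-αKG (log2 fold change 1.10, SE 0.27, adjusted p = 0.00159). The region was a peak of the dm-αKG list only, so that it entered the table through the treatment in which it was higher. The treatments did not overlap, yet per 200 bp its control level of 12.3 was at the very bottom of all promoter regions. Without dm-αKG replicate 1 the change was 0.90 and missed the threshold (adjusted p = 0.0596), and the study's thresholds were also missed without control replicate 3 (0.93, adjusted p = 0.0178) and with DESeq2 (adjusted p = 0.0138). Further into the gene, an intron region at 203 kb rose from 66.2, 55.9 and 68.0 to 123, 123 and 118 (0.95, SE 0.17, adjusted p = 1.87e-05). Intron regions at 108, 145 and 150 kb rose by 0.73 to 0.87 on the log2 scale, and 1 at 125 kb fell by 0.83.

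HAND1, a basic helix-loop-helix factor, and MSX2, a homeobox factor, each had 1 region that was less accessible at both thresholds, both upstream of the gene. The HAND1 region at -23.5 kb held 169, 178 and 191 normalized counts in control and 77.4, 92.4 and 102 with dm-αKG (log2 fold change -1.01, SE 0.15, adjusted p = 1.11e-07), without overlap. Its fold was at the study's threshold and under it without control replicate 3 (-0.97) or dm-αKG replicate 1 (-0.88), with total-count scaling (-0.996) and with the GC offsets (-0.97). A second one at -43.0 kb fell from 368, 354 and 319 to 229, 221 and 253 (-0.58). The MSX2 region at -25.6 kb was a weak one, with 26.8, 23.8 and 42.5 counts in control and 11.5, 14.1 and 12.0 with dm-αKG (-1.29, SE 0.37, adjusted p = 0.00752). It was a peak of the control list only and so entered the table through the treatment in which it was higher. It missed the 0.05 threshold without control replicate 3 (-1.02, adjusted p = 0.0794) and without dm-αKG replicate 1 (-1.20, adjusted p = 0.0532), and with DESeq2 its adjusted p was 0.0338. It also missed the study's threshold of 0.01, at an adjusted p of 0.0163 when control replicate 1 was left out, and of 0.016 or 0.0146 when the second or the third dm-αKG library was.

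**Figure D3:**
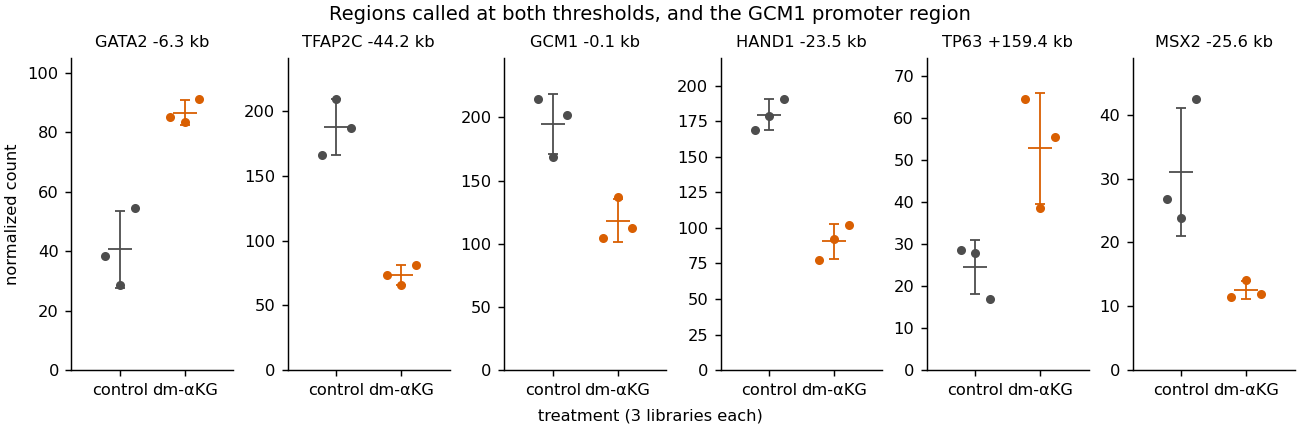
Normalized counts in the 3 control and 3 dm-αKG libraries for the regions past both thresholds and for the GCM1 promoter region; each panel has its own axis from 0. Points are libraries, horizontal marks are means and bars are ± SD. In every panel the treatments do not overlap, and the MSX2 and TP63 regions have the lowest counts.

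GCM1 encodes the factor that turns on the fusion genes of the syncytiotrophoblast. Its 1 promoter region fell from 215, 169 and 202 to 105, 137 and 112 normalized counts (log2 fold change -0.74, SE 0.14, adjusted p = 3.14e-05). An upstream region at -35.3 kb, with 1 GATA match, fell from 317, 290 and 270 to 212, 155 and 195 (-0.63, SE 0.11, adjusted p = 9.7e-06). In both, all dm-αKG libraries were below all controls. A region at -46.7 kb also fell (-0.56) and 1 at -23.1 kb rose (0.61). The region with the highest level of the locus, 585 counts per 200 bp in control at -29.6 kb, had a log2 fold change of -0.05 (adjusted p = 0.722).

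CDX2 and GATA3 are markers much used for the TE, and neither promoter region passed the test. The CDX2 promoter region held 268, 250 and 270 normalized counts in control and 272, 319 and 260 with dm-αKG (log2 fold change 0.11, SE 0.10, adjusted p = 0.486). The GATA3 promoter region held 168, 145 and 136 against 134, 126 and 181 (-0.06, SE 0.14, adjusted p = 0.827), and its sign turned to positive when control replicate 1 was left out, and likewise for replicate 1 or replicate 2 of dm-αKG. The treatments overlapped at both. The GATA3 region used lies 28 bp from the start of the antisense gene GATA3-AS1. The regions nearer the canonical GATA3 start had changes of the other sign that did not pass, at -0.045 kb with 57.2, 46.0 and 44.9 against 63.8, 64.1 and 46.4 (0.25, adjusted p = 0.47) and at -0.86 kb (0.28, adjusted p = 0.545). Distal regions did change. At CDX2, a region 14.5 kb downstream of the start, with 1 GATA match, rose from 124, 91.2 and 104 to 212, 183 and 175 (0.85, SE 0.14, adjusted p = 2.03e-06), and its neighbour at 14.8 kb rose by a log2 fold change of 0.49. The annotated start nearest to the 14.5 kb region is that of LINC00543, at 1243 bp, and not one of CDX2. The CDX2 window also reached the neighbouring genes PDX1 and PLUT, and the rising region at 51.9 kb lay 94 bp from the start of PLUT. At GATA3, the region at 48.5 kb rose from 214, 236 and 230 to 307, 312 and 263 (0.39, SE 0.10, adjusted p = 0.00458) and 1 at 43.2 kb rose by 0.76, whereas 1 at 31.8 kb, which held an octamer, fell from 91.2, 88.8 and 71.7 to 53.1, 59.0 and 49.4 (-0.65).

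TFAP2A and ELF5 had 1 region each that passed. At TFAP2A, 1 region 365 bp from an annotated start rose from 66.2, 45.2 and 71.7 to 105, 73.1 and 85.3 (log2 fold change 0.57, SE 0.19, adjusted p = 0.0295), where the lowest dm-αKG library was close to the highest control. It missed the threshold without control replicate 2 (0.39, adjusted p = 0.239) and without dm-αKG replicate 1 (0.39, adjusted p = 0.291), with DESeq2 (adjusted p = 0.126) and with the GC offsets (0.0524). The promoter region by the rule used here, at 10.5 kb, lies at the start of a shorter TFAP2A transcript and 42 bp from that of the antisense gene TFAP2A-AS2, which ATAC-seq cannot separate. It held 502, 470 and 442 against 470, 450 and 482 (-0.02, adjusted p = 0.922). The region at -0.25 kb from the canonical start held 341, 332 and 307 against 328, 316 and 325 (-0.02, adjusted p = 0.911). At ELF5, an ETS factor, the region at -50.9 kb, which lies within 50 kb of the gene because a longer transcript begins further upstream, fell from 246, 244 and 259 to 181, 167 and 178 (-0.50, SE 0.11, adjusted p = 0.000636). The ELF5 promoter region held 120, 85.5 and 102 against 97.5, 94.9 and 73.3 and did not pass (-0.18, adjusted p = 0.496).

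Compared per 200 bp, the promoter regions chosen by the highest mean count were ordered TFAP2A (471 ± 29.8 normalized counts in control, SD, n = 3), HAND1 (383 ± 17.4), TFAP2C (366 ± 19.7), MSX2 (273 ± 6.24), GATA2 (249 ± 21.0), CDX2 (240 ± 10.1), GCM1 (188 ± 23.0), GATA3 (144 ± 15.9), ELF5 (102 ± 17.1) and TP63 (12.3 ± 3.27). The control libraries of HAND1 and TFAP2C overlapped, as did those of MSX2 with GATA2 and of GATA2 with CDX2, so these neighbours in the order are not separated. The order depends on the region taken, since the regions nearest to the canonical starts had 325 counts per 200 bp at TFAP2A, 394 at TFAP2C, 98.0 at GATA2, 49.4 at GATA3 and 29.7 at ELF5. Among the 16275 promoter regions of protein-coding genes, TFAP2A stood at the 78.1th percentile, CDX2 at the 43.4th, GATA3 at the 25.0th and ELF5 at the 16.5th. TP63 stood at the 0.037th percentile. Of the 10, 1 rose (TP63, at a region listed as a peak with dm-αKG only), 1 fell (GCM1) and 8 did not pass, beside 1425 that rose and 794 that fell of all 16275. The directions of the TFAP2A and HAND1 promoter changes also turned under single alternatives, and none of those values passed.

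**Figure D4:**
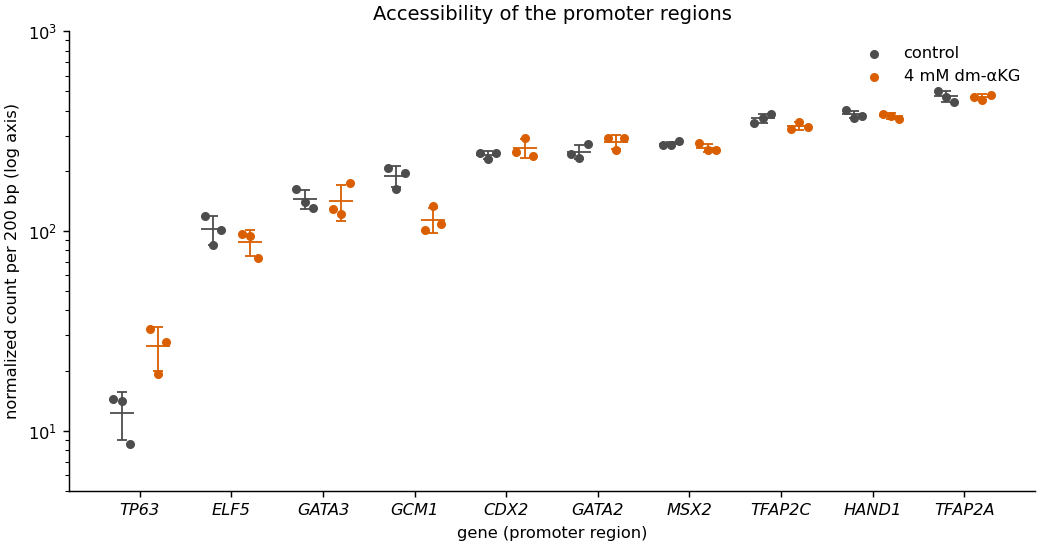
Normalized counts per 200 bp of the promoter region of each gene in each library, on a log axis; points are libraries, horizontal marks are means and bars are ± SD (n = 3 per treatment). The genes are ordered by control level, from TP63 at 12.3 to TFAP2A at 471, and the treatments are apart only at TP63 and GCM1.

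Of the 214 regions, 151 held a peak summit of both authors' lists, 27 only of the control list and 36 only of the dm-αKG list. Of those that rose, 15 were in both, and of those that fell, 19 were in both and 1 in the dm-αKG list alone. These lists come from the same reads and are a description. In 200 bp around the centre, a GATA match was found in 21.5% of the 214 regions and 17.2% of all regions, and a TFAP2 match in 26.2% and 17.9%. AP-1 (6.54% and 6.33%), TEAD (14.5% and 14.6%), the octamer (2.34% and 2.3%), SOX (2.8% and 2.71%), forkhead (2.34% and 2.85%) and NRF2 (8.88% and 9.56%) matches were about as common in both. Of the 23 that rose, 2 held a GATA and 6 a TFAP2 match, and of the 25 that fell, 4 held a GATA and 4 a TFAP2 match. Neither the octamer nor SOX was matched in a region that rose, and each was matched in 2 that fell. Both motifs are rare in the table, so these counts are too small to show a difference. Their shares among all regions that rose or fell were not taken. At the edge of the window, the outermost region taken lay 49.9 kb upstream of TFAP2C and held 403 ± 27.4 in control and 347 ± 31.0 with dm-αKG. The nearest one left out lay on the other side of the gene, 50.0 kb downstream, and held 88.0 ± 22.3 and 66.2 ± 12.0 (SD, n = 3).

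Of 15 other trophoblast factors, 4 loci rose and 1 fell, where 22.6% of the loci of all protein-coding genes rose and 14.8% fell. The loci that rose were ARID3A (log2 fold change 0.23, adjusted p = 2.18e-05), DLX3 (0.14), PPARG (0.16) and FOSL1 (0.12), and that of CEBPA fell (-0.32, adjusted p = 6.44e-05). FOSL1 did not pass with the GC offsets (adjusted p = 0.124). Around these genes 42 of 353 regions rose (11.9%) and 26 fell (7.37%), against 7.43% and 10.5% of all regions. At both thresholds 4 were more accessible and 4 less accessible, where 0.782% and 1.96% of all regions were. Of their 14 promoter regions, those of ARID3A (322 ± 22.7 to 403 ± 1.62, log2 fold change 0.33) and DLX3 (359 ± 20.1 to 443 ± 38.5, 0.30) rose and 12 did not pass. By comparison, 4 of 8 naive marker loci fell (KLF17 by 0.44, NANOG by 0.32, KLF4 by 0.22 and TFCP2L1 by 0.17 on the log2 scale) and 0 rose. Of 6 trophoblast marker loci 2 fell, among them KRT19 by 0.24, and 0 rose. Those of KRT7 (0.12), KRT18 (0.03) and GABRP (-0.003) did not pass. Whether the change at TFAP2C differed from that at the naive loci was not tested.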

How the data were processed

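ATAC-seq was measured in 6 libraries of H9 nES cells, grouped by the treatment in the sample labels. The authors aligned paired-end reads to hg38 with Bowtie2, filtered them with Picard and the ENCODE pipeline run separately per treatment, called peaks with MACS2, cut the reproducible peaks to 200 bp around the summit and merged them. The authors deposited raw counts of reads per merged peak (median width 204 bp), without normalization, and per treatment a pooled peak list whose signal column is a fold enrichment, a ratio used here only for whether a peak was listed. Because peaks were called per treatment and summits set the edges, counts depend on which list a region came from. A region was taken as a peak of a list when the summit of a listed peak lay inside it. The authors' notes name bcl2fastq 2.20.0.422, cutadapt and bedtools 2.28.0.

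The test of the counts was edgeR 4.0.16 under R 4.3.3 (TMM, glmQLFit, glmQLFTest, treatment as the only term) over all 171517 regions with Benjamini-Hochberg adjustment, and "rose" and "fell" mean an adjusted p below 0.05. The study's own thresholds ask for an adjusted p under 0.01 and for a log2 fold change beyond 1 in size. The study applied them to DESeq2 results, and here they were applied to the edgeR fit. Standard errors are the log2 fold change divided by the square root of F. Normalized counts are counts divided by the scaled library size, times its mean. Locus totals are counts summed over the regions inside or within 50 kb of a gene, fitted with the library factors of the region table. The promoter region is the one with the highest mean count within 1 kb of any annotated start of the gene. Genes came from GENCODE 44 and sequences from hg38, and it was checked that every region lies on a chromosome of that genome and within its length.

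Named regions were, per gene, the promoter region, the region with the smallest p and each region past both study thresholds, and other regions named in the text were chosen after their values were seen. The genes and lists were chosen with earlier results of these data known. DESeq2 1.42.0, RLE and total-count scaling, a minimum of 10 counts in every library, windows of 10 and 100 kb, the replicate number as a block and leaving out each library were alternatives, and GC offsets and totals without regions at other genes' starts were added after seeing the data. The libraries held 13025674 to 26828622 counts, and the precision of each change is its standard error. The methods call the libraries biological replicates of an experiment performed once. An exact permutation test of 3 against 3 libraries cannot give a p below 0.1, so tests rest on the model across all regions. Tables were handled in Python 3.11.15 with pandas 2.3.3. The locus value of 1 trophoblast marker is not reported here.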

Additional observations from a re-analysis of the deposited data

How the results depend on the processing

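Member regions that fell numbered 25 and those that rose 23. With DESeq2 these were 13 and 12, with windows of 10 kb 6 and 13, and at an adjusted p below 0.01 13 and 10. Leaving out 1 library gave 15 to 25 and 13 to 25. The calls over all regions also moved, from 18047 that fell and 12743 that rose to 11394 and 6267 with DESeq2. With 1 library left out they were 12196 to 18744 and 7808 to 13082. Of the 3 less and 2 more accessible regions at the study thresholds, DESeq2 gave 2 and 1, windows of 10 kb held 0 less accessible and windows of 100 kb 5, GC offsets gave 5 more accessible, and leaving out 1 library gave 2 to 3 and 1 to 4. Locus totals that fell numbered 2 and those that rose 3, against 4 that fell without regions at other transcript starts, and 1 to 2 and 1 to 3 when 1 library was left out. The low counts came without control replicate 1 or dm-αKG replicate 1 for the falls and without dm-αKG replicate 2 for the rises. The cause of these moves was not tested, except that fewer libraries enter a leave-one-out fit and fewer regions a narrower window.

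Same-numbered libraries did not deviate together (r of -0.016, 0.001 and 0.017), and pairs with different numbers ranged from -0.028 to 0.033. This check found no shared deviation, and it cannot tell whether same-numbered libraries were prepared together. With the replicate block, 24 member regions fell and 22 rose, 2 were less and 2 more accessible, 2 locus totals fell and 3 rose, and the MSX2 -25.6 kb region had an adjusted p of 0.0121. All 30 values for single regions and loci kept their direction and side of the 0.05 threshold under the block.

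The 359 such values leave out the other windows and the totals without regions at other genes' starts. Of these values, 330 kept both, 17 no longer passed, 5 newly passed and 7 changed sign. The reversals were all of changes that did not pass: with 1 library left out, the GATA3 promoter region ranged from -0.21 to 0.0425 on the log2 scale (positive without control replicate 1 and without either the first or the second dm-αKG library), the HAND1 promoter region from -0.0472 to 0.0200 (positive without control replicate 1) and the TFAP2A promoter region from -0.0553 to 0.0374 (positive without control replicate 1 or dm-αKG replicate 2), which was 0.0010 with total-count scaling. The GATA2 and TFAP2C totals passed in every one of these values, at 0.27 to 0.36 and -0.23 to -0.17. Windows of 10 and 100 kb gave only counts of loci, with 2 totals that fell and 2 that rose at each. The minimum of 10 counts removed the MSX2 -25.6 kb region.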
